A study of Mus musculus with 4 samples.

Results

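The 52 genes described here encode proteins that carry a cell through mitosis: the kinases and cyclins of mitotic entry, condensin and other chromosome proteins, the kinetochore, the spindle checkpoint, spindle motors, the anaphase machinery, and the factors of cytokinesis. They were listed by symbol with earlier results of these data known, so counts over the 52 describe the list and do not test it. All 52 were found among the 22554 genes named once in both deposited tables. All 52 also reached at least 1 FPKM in at least 2 libraries, so all were among the 10202 genes tested. The libraries hold messenger RNA of the mouse macrophage line RAW264.7. In 2 libraries the macrophages had shared a culture with the mouse colon carcinoma line CT26 (coculture 1 and 2), and the other 2 are labelled mock, with no tumour line named (mock 1 and 2). No genotype, added agent or animal is named for either group, and the sources used here give neither the time in coculture nor how macrophages and tumour cells were parted. Libraries with the same number stand in one deposited table and are called pair 1 and pair 2. The labels do not say whether the replicates were separate cultures, so the p-values speak to variation among these 4 libraries alone, and that variation may be technical.

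The RAW264.7 line divides continuously in culture. As a cell nears mitosis, cyclin A and cyclin B gather with the kinase CDK1, chromosomes condense, and microtubules attach to the kinetochores built on each centromere. The spindle checkpoint holds the cell until every chromosome is attached, after which the anaphase-promoting complex marks securin and cyclin B for destruction and the cell divides. Messenger RNAs of these proteins are known to peak together in G2 and M phase and to be low in resting cells. In these bulk libraries, fewer dividing cells and less messenger RNA per dividing cell cannot be told apart.

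Levels are the FPKM that the authors deposited, that is fragments adjusted for gene length and library total. A difference is the log2(FPKM + 1) of coculture less that of mock, and ± gives the moderated standard error that limma gives when the pair is a block (n = 2 pairs). The libraries were estimated to hold 12060000 to 15820000 reads, which put at least 516 reads behind every one of the 52 genes in every library and a counting error of at most 4.40%. The CT26 line is itself a dividing cell, so markers of epithelial and mesenchymal cells were looked at beside these genes. All 11 epithelial markers were near 0, with sums of 0.166 and 0.154 FPKM in coculture and 0.143 and 0.0570 FPKM in mock, and 5 of them, among them Epcam and Krt18, were listed at 0 in every library. The 15 mesenchymal markers found in both tables summed to 1184 and 976 FPKM in coculture and 962 and 848 FPKM in mock, nearly all of it Vim, which macrophages also express. Without Vim and Tagln, the 2 that reached 1 FPKM, the sums were 0.577 and 0.117 FPKM in coculture and 0.788 and 0.0730 FPKM in mock. Lymphoid and granulocyte markers each summed to at most 0.309 FPKM in any library. Macrophage markers summed to 10903 and 13889 FPKM in coculture and 10476 and 7057 FPKM in mock, with Lyz2 as the most abundant of them (6585 and 10287 FPKM in coculture, 7088 and 3529 FPKM in mock). Of these 13 markers, 12 reached 1 FPKM in at least 2 libraries, all but Mertk. Of those 12, 5 were lower and 3 higher in both pairs, near the 42.2% and 21.5% of all genes tested. The 12 had a median difference of -0.09, beside -0.07 over all genes tested, though single markers moved further in either direction. Cd14 was higher, at 1732 and 1149 FPKM in coculture and 607 and 354 FPKM in mock. Csf1r was lower, at 472 and 397 FPKM in coculture and 637 and 535 FPKM in mock.

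Mitosis genes were lower in the cocultured macrophages in both pairs in 49 of 52, by modest amounts, and 3 (Cdk1, Bub3 and Pttg1) were higher in pair 1. The 52 genes summed to 2558 and 2252 FPKM in coculture 1 and 2, against 3065 and 3222 FPKM in mock 1 and 2. That is 0.582% and 0.566% of all FPKM in the coculture libraries, and 0.722% and 0.838% in the mock libraries. Both coculture sums lay below both mock sums. The median gene stood at 38.7 and 34.5 FPKM in coculture and 45.5 and 49.7 FPKM in mock, and the median difference in FPKM was -18.6% in pair 1 and -29.6% in pair 2.

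No single gene of the 52 passed limma's test over all genes (Benjamini-Hochberg adjusted p from 0.143 to 0.726), and the same test called 0% of the 10202 genes lower and 0.127% higher. Without a correction for the number of genes, 27 of the 52 were lower at a limma p under 0.05 and 0 were higher, where 9.45% of all genes tested were lower and 5.26% higher. This count rests on all 4 libraries and on the pair block: it was 15 without the block, and 6 without coculture 1, 4 without coculture 2, 1 without mock 1 and 0 without mock 2, all unblocked. Over all genes tested, the share lower was 2.37% without the block, and 1.25%, 2.95%, 1.41% and 0.343% in the last 4 fits. Over all genes the corrected test called 13 higher and 0 lower, or 85 higher and 18 lower after each library was centred on its median, and none of the 52 was among them under either scaling.

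The direction was the same in nearly all of the genes. In both pairs 49 of 52 were lower, against 42.2% of all genes tested, and 0 were higher in both, against 21.5%. In 41 of 52 the 2 coculture libraries lay below both mock libraries, again with 21.5% of all genes as the background, and in 0 did they lie above (10.3%). Such a count compares libraries across the 2 deposited tables, which may have been normalized separately. The same limit holds wherever groups are said below to overlap or not. The 52 differences had -0.40 as their median (pair 1, -0.29 and pair 2, -0.49), and over all genes tested the median was -0.07 (-0.09 and -0.06). Since the median gene was itself slightly lower, the count was repeated after median centring, where 42 of the 52 were lower in both pairs beside 32.2% of all genes, and their median was -0.34. Only 7 of the 52 were lower by at least 0.5 in both pairs (3.28% of all genes), namely Mki67, Foxm1, Cdc25b, Kif11, Cenpf, Anln and Incenp.

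**Figure D1:**
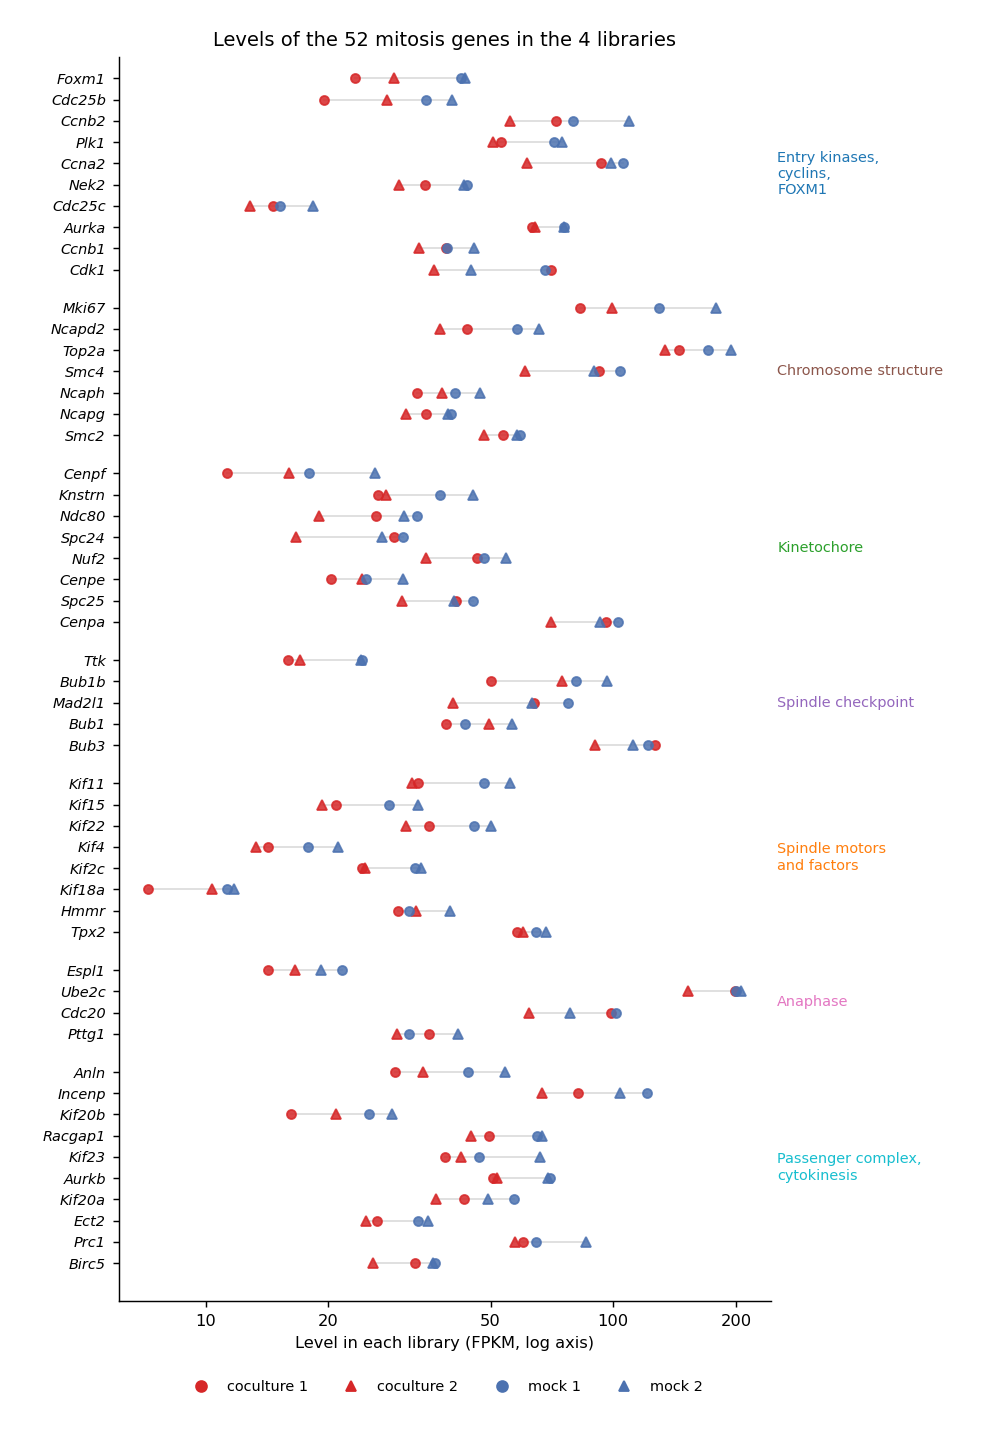
Level of each of the 52 mitosis genes in every library, in FPKM on a log axis, with genes grouped by role and sorted within a role by their mean difference. Red marks are coculture and blue marks mock, with circles for replicate 1 and triangles for replicate 2. In 41 genes both red marks lie left of both blue marks, and Ube2c, Top2a and Mki67 are the most abundant.

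Genes of mitotic entry were lower in both pairs in 9 of 10, and in 4 of 10 at an unadjusted limma p under 0.05, with a median difference of -0.43. Over all genes tested, 42.2% were lower in both pairs and 9.45% were lower at that p. Foxm1, which encodes a transcription factor that drives G2 and M phase genes, stood at 23.2 and 29.0 FPKM in coculture and 42.3 and 43.3 FPKM in mock. Both mock libraries were alike and both coculture libraries lay well under them, a difference of -0.70 ± 0.13 (limma adjusted p = 0.174). Cdc25b, a phosphatase gene whose product activates CDK1 at the start of mitosis, stood at 19.5 and 27.9 FPKM in coculture and 34.7 and 40.2 FPKM in mock. Here too the groups did not overlap, and the difference was -0.66 ± 0.13. Its relative Cdc25c was the less abundant gene, at 14.6 and 12.9 FPKM in coculture and 15.2 and 18.3 FPKM in mock, with -0.05 in pair 1 and -0.48 in pair 2.

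The cyclin genes differed mainly in pair 2. Ccnb2, the cyclin B2 gene, stood at 72.3 and 55.7 FPKM in coculture and 79.6 and 109 FPKM in mock, so that mock 2 was far above the other libraries. Pair 1 gave a difference of -0.14 and pair 2 one of -0.96, the largest of any of the 52 genes within pair 2. Ccnb1, the cyclin B1 gene, stood at 38.8 and 33.5 FPKM in coculture and 39.1 and 45.6 FPKM in mock. Coculture 1 and mock 1 were nearly equal, and the difference over both pairs was -0.22 ± 0.15. Ccna2, which encodes cyclin A2, differed by -0.18 and -0.67. Cdk1, the kinase that these cyclins activate, stood at 70.3 and 36.3 FPKM in coculture and 67.9 and 44.8 FPKM in mock. The libraries of pair 1 were both higher than those of pair 2, the groups overlapped, and the difference of -0.12 ± 0.14 had opposite signs in the pairs (0.05 and -0.30). It was 0.34 without coculture 2 and 0.17 without mock 1.

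Among the other entry kinases, Plk1, which acts from centrosome maturation to cytokinesis, stood at 53.0 and 50.8 FPKM in coculture and 71.4 and 74.9 FPKM in mock. Replicates of a group were within a few FPKM of each other, and the difference was -0.49 ± 0.11. Nek2, a kinase gene for centrosome separation, differed by -0.43 ± 0.12 and Aurka, the Aurora A gene, by -0.24 ± 0.11. Neither overlapped between the groups. Over the 10 entry genes, both coculture libraries lay below both mock libraries in 9, against 21.5% of all genes tested.

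Chromosome structure genes were lower in both pairs in 7 of 7, with a median difference of -0.37 and 4 at an unadjusted limma p under 0.05. The shares of all genes tested were 42.2% and 9.45%. Mki67, the gene of the proliferation marker Ki-67, which coats mitotic chromosomes, stood at 83.0 and 99.5 FPKM in coculture and 129.6 and 179 FPKM in mock. Both coculture libraries lay below both mock libraries, and the difference of -0.74 ± 0.12 was the largest of the 52 (limma adjusted p = 0.143). Top2a, which encodes the topoisomerase that untangles sister DNA, stood at 145 and 134 FPKM in coculture and 171 and 195 FPKM in mock. The groups did not overlap, and the difference was -0.38 ± 0.13. Of the 5 condensin genes, which encode the ring complexes that compact chromosomes, Ncapd2 stood lowest relative to mock, at 43.8 and 37.7 FPKM in coculture and 58.1 and 65.6 FPKM in mock (difference -0.59 ± 0.14). Smc4, Ncaph, Ncapg and Smc2 differed by -0.37, -0.30, -0.27 and -0.20, and only in Smc4 did the groups overlap. Over the 7 chromosome genes, both coculture libraries lay below both mock libraries in 6, against 21.5% of all genes tested.

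Kinetochore genes were lower in both pairs in 8 of 8 (42.2% of all genes tested), and 3 of 8 at an unadjusted limma p under 0.05 (9.45%). Their median difference was -0.36 (-0.21 without coculture 2). Cenpf, which encodes a large protein of the outer kinetochore, stood at 11.3 and 16.0 FPKM in coculture and 17.9 and 26.0 FPKM in mock. Its difference was about the same in both pairs (-0.62 and -0.66), with a mean of -0.64 ± 0.13. Knstrn, the kinastrin gene, whose product helps to anchor the spindle at the kinetochore, stood at 26.5 and 27.7 FPKM in coculture and 37.6 and 45.4 FPKM in mock. The groups did not overlap, and the difference was -0.59 ± 0.12.

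The NDC80 complex, the microtubule-binding part of the kinetochore, is made from 4 of these genes. Ndc80 itself stood at 26.2 and 18.9 FPKM in coculture and 33.1 and 30.6 FPKM in mock, with a difference of -0.49 ± 0.14 and no overlap of the groups. Nuf2, Spc24 and Spc25 were close to mock in pair 1, at -0.05, -0.07 and -0.14, and lower in pair 2, at -0.64, -0.67 and -0.41. Cenpa, the gene of the centromeric histone H3 variant, was the most abundant of the kinetochore group and differed by -0.10 and -0.39. Cenpe, a kinetochore motor gene, differed by -0.27 and -0.32. In Spc24, Spc25 and Cenpa, coculture 1 lay above mock 2, so the groups overlapped. They did not overlap in 5 of the 8 kinetochore genes, where coculture was below mock (21.5% of all genes tested).

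Of the 5 spindle checkpoint genes, 4 were lower in both pairs, 3 at an unadjusted limma p under 0.05 and 2 without overlap of the groups. The same shares over all genes tested were 42.2%, 9.45% and 21.5%. The checkpoint genes had a median difference of -0.45, larger in size than their medians within pair 1 (-0.28) and pair 2 (-0.36). Ttk, which encodes the checkpoint kinase MPS1, stood at 15.9 and 16.996 FPKM in coculture and 24.2 and 24.1 FPKM in mock. Replicates were nearly equal within each group, and the difference was -0.53 ± 0.13. Bub1b, the gene of the checkpoint protein BUBR1, stood at 50.3 and 74.9 FPKM in coculture and 81.3 and 96.4 FPKM in mock. It differed more in pair 1 (-0.68) than in pair 2 (-0.36), with a mean of -0.52 ± 0.13, or -0.24 without coculture 1 and -0.80 without coculture 2. Mad2l1, which encodes the MAD2 inhibitor of anaphase, stood at 63.8 and 40.5 FPKM in coculture and 77.5 and 63.1 FPKM in mock; coculture 1 was just above mock 2, and the difference was -0.45 ± 0.14, or -0.77 without coculture 1 and -0.13 without coculture 2. Bub3, a partner of BUB1 and BUBR1, stood at 127 and 90.4 FPKM in coculture and 122 and 112 FPKM in mock. It was slightly higher in coculture in pair 1 and lower in pair 2 (0.05 and -0.30), a mean of -0.13 ± 0.14, or 0.11 without coculture 2. Bub1 itself differed by -0.15 and -0.19.

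Spindle motor and spindle factor genes were lower in both pairs in 8 of 8 and at an unadjusted limma p under 0.05 in 5 of 8. The shares of all genes tested were 42.2% and 9.45%. This role had a median difference of -0.45. Kif11, the gene of the kinesin Eg5, which pushes the spindle poles apart, stood at 33.2 and 32.0 FPKM in coculture and 48.1 and 55.9 FPKM in mock. Coculture replicates were nearly equal, both mock libraries were higher, and the difference was -0.65 ± 0.13. Kif15, a kinesin gene with a role that overlaps that of Eg5, stood at 20.9 and 19.3 FPKM in coculture and 28.2 and 33.2 FPKM in mock, a difference of -0.58 ± 0.14. Kif22, whose product pushes chromosome arms away from the poles, stood at 35.4 and 31.0 FPKM in coculture and 45.7 and 50.1 FPKM in mock, a difference of -0.52 ± 0.14. In neither gene did the groups overlap. Kif4, a chromosome-bound kinesin gene, and Kif2c, a gene for a kinesin that shortens microtubules, differed by -0.47 and -0.43. Kif18a was the least abundant of the 52 genes, at 7.23 and 10.3 FPKM in coculture and 11.3 and 11.7 FPKM in mock. The smallest differences of this role were in Hmmr and Tpx2, which encode spindle assembly factors (-0.18 and -0.17). Hmmr was the one gene of this role whose groups overlapped. In 7 of the 8, both coculture libraries lay below both mock libraries, against 21.5% of all genes tested.

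Anaphase genes had the smallest median difference among the roles, at -0.20 (pair 1, -0.02 and pair 2, -0.38). It was -0.35 without coculture 1 and -0.033 without coculture 2. At an unadjusted limma p under 0.05, 0 of 4 were lower, beside 9.45% of all genes tested, and 4 genes are too few to tell from that share. Ube2c, the gene of the ubiquitin-conjugating enzyme of the anaphase-promoting complex, was the most abundant of all 52, at 199 and 153 FPKM in coculture and 200.2 and 206 FPKM in mock. Coculture 2 alone stood apart, and the difference was -0.22 ± 0.15. Cdc20, which encodes the activator of that complex, stood at 99.0 and 62.3 FPKM in coculture and 102 and 78.4 FPKM in mock. Coculture 1 was above mock 2, and the difference of -0.18 ± 0.13 was 0.15 without coculture 2 and 0.0038 without mock 1. Pttg1, the securin gene, was the one member with a higher value in coculture by more than 0.1 in either pair. It stood at 35.4 and 29.5 FPKM in coculture and 31.5 and 41.7 FPKM in mock, a difference of 0.16 in pair 1 and -0.49 in pair 2, with a mean of -0.16 ± 0.19 that was 0.036 without mock 2. Espl1, the separase gene, whose product cuts cohesin, stood at 14.2 and 16.6 FPKM in coculture and 21.6 and 19.2 FPKM in mock. The groups did not overlap, and the difference was -0.57 in pair 1 and -0.20 in pair 2.

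Genes of the chromosomal passenger complex and of cytokinesis were lower throughout. All 10 were lower in both pairs (42.2% of all genes tested), and in all 10 the coculture libraries lay below both mock libraries (21.5%). At an unadjusted limma p under 0.05, 8 of 10 were lower (9.45%). The median difference of the 10 was -0.44. Incenp, the scaffold of the passenger complex, stood at 81.8 and 66.8 FPKM in coculture and 121 and 104 FPKM in mock. The difference was alike in both pairs, with a mean of -0.60 ± 0.11. Aurkb, the Aurora B kinase of the same complex, stood at 50.8 and 52.01 FPKM in coculture and 69.98 and 69.1 FPKM in mock. Replicates of each group were within a few FPKM, and the difference was -0.43 ± 0.11. Birc5, the survivin gene, stood at 32.5 and 25.7 FPKM in coculture and 36.6 and 36.1 FPKM in mock. Its groups lay close together without overlap, and the difference was -0.32 ± 0.14.

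Anln encodes anillin, which organizes the contractile ring, and stood at 29.1 and 34.2 FPKM in coculture and 44.1 and 54.3 FPKM in mock. No library of one group reached the other, and the difference was -0.62 ± 0.11 (limma adjusted p = 0.171). Kif20b, a kinesin gene of the midbody, stood at 16.2 and 20.9 FPKM in coculture and 25.2 and 28.7 FPKM in mock, a difference of -0.52 ± 0.13. Racgap1 and Kif23, which encode both parts of centralspindlin, differed by -0.47 and -0.45, and Ect2, whose product activates RhoA at the site of cleavage, by -0.40. Prc1, a gene for the protein that bundles midzone microtubules, and Kif20a, a midzone kinesin gene, differed by -0.34 and -0.40.

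Single genes rested on single libraries to different degrees. When 1 library was left out, in fits without the block, the difference turned or moved by over 1.5 times in 13 of the 28 members described in full. Values for Cdk1, Bub3, Bub1b, Mad2l1, Cdc20 and Pttg1 are given with those genes. Without coculture 1, the difference was -0.41 in Cdc25b, -0.41 in Cenpf, -0.48 in Birc5 and -0.41 in Ube2c. Without coculture 2, it was -0.36 in Ccnb2, -0.12 in Ccnb1, -0.27 in Ndc80, -0.15 in Birc5 and -0.031 in Ube2c. Without mock 2, it was -0.32 in Ccnb2, -0.12 in Ccnb1 and -0.39 in Cenpf. All of these kept the sign they had over 4 libraries.

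**Figure D2:**
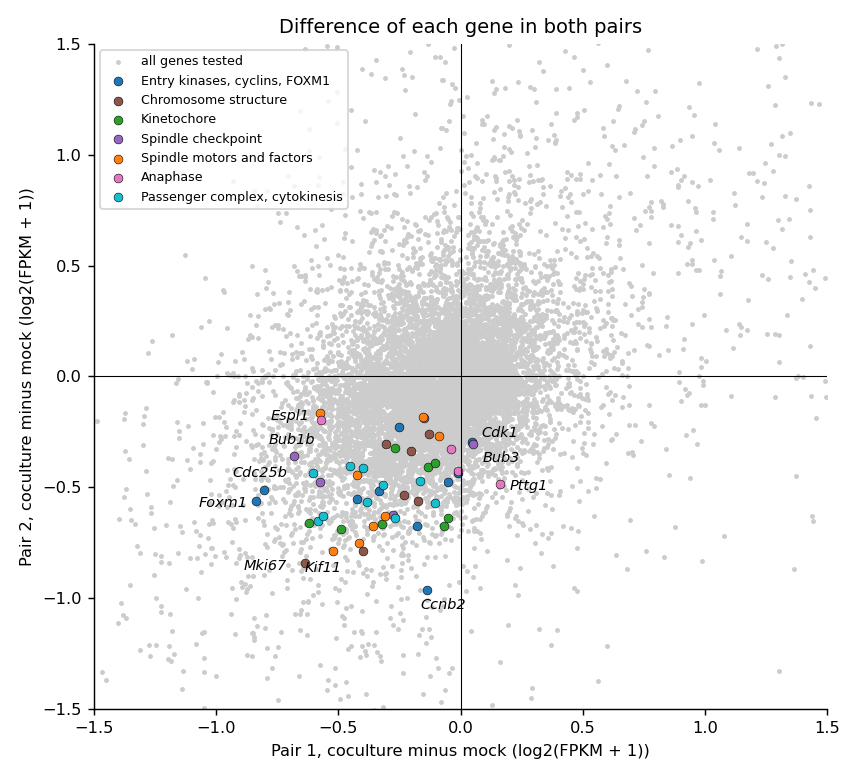
Difference of each gene in pair 1 (horizontal axis) and pair 2 (vertical axis), coculture minus mock in log2(FPKM + 1). Grey points are all genes tested, of which 323 lie outside the axes, and coloured points are the 52 mitosis genes by role. The coloured points lie below and left of zero except Pttg1, Cdk1 and Bub3, which lie just right of the vertical line.

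In 42 of 52 genes the difference was more negative in pair 2 than in pair 1, against 45.7% of all genes tested. Across the 52 genes, which share the same 4 libraries and are not independent, the pair 1 and pair 2 differences correlated with a Pearson's r of 0.22 and a rank correlation (Spearman's rho) of 0.28, beside 0.48 and 0.37 over all genes tested. Pair 1 held its most negative values in Foxm1 (-0.84), Cdc25b (-0.80) and Bub1b (-0.68), and pair 2 in Ccnb2 (-0.96), Mki67 (-0.84) and Kif11 (-0.79). In pair 2, all 52 were lower, against 57.9% of all genes tested, and in pair 1, 49 were lower, against 62.5%.

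Gene length moved with the differences in pair 1. Across the 52 genes, log2 exonic length correlated with the difference at a Pearson's r of -0.37 and a Spearman's rho of -0.32 in pair 1, and at -0.09 and -0.18 in pair 2. Over the 10085 genes with a length, the values were -0.15 and -0.18 in pair 1 and -0.06 and -0.06 in pair 2. The shorter 26 of the members, of up to 5158 bases, had medians of -0.22 (pair 1) and -0.46 (pair 2), where all genes of up to that length had -0.05 and -0.04. The longer 26 had -0.31 and -0.56, where all genes of at least 5210 bases had -0.14 and -0.08. After the difference in each pair was corrected for gene length and GC content, an alternative chosen after seeing the data, the median of the 52 was -0.33, with 41 lower in both pairs beside 29.4% of all genes. The part of gene length in the result was not tested beyond this.

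**Figure D3:**
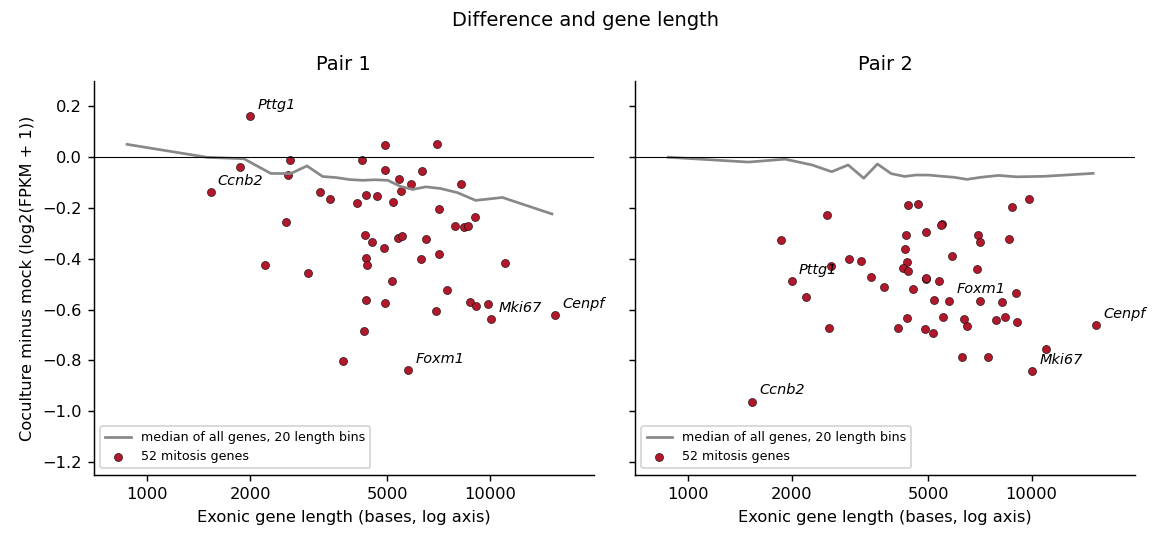
Difference within pair 1 (left) and pair 2 (right), coculture minus mock in log2(FPKM + 1), against exonic gene length in bases on a log axis. Red points are the 52 mitosis genes and the grey line joins the medians of all genes tested in 20 bins of length. The mitosis genes lie mostly below the line in both panels, and the line slopes down in pair 1.

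Many genes of mitosis are known to share promoter elements: the CHR (cell cycle genes homology region), which is bound by the MuvB core of the DREAM and MYB-MuvB complexes, and the CCAAT box, which is bound by NF-Y. Because the genes were lower together, both were looked for in RefSeq promoter windows (GRCm38.p6, 250 bases before to 50 after the annotated start), which were matched by symbol for 43 of the 52. Aurkb, Ccna2, Cdc25c, Foxm1, Incenp, Kif20a, Smc4, Spc24 and Tpx2 were not matched. The CHR was searched as TTTGAA and TTCGAA and the CCAAT box as CCAAT, on both strands, and no match of one overlapped a match of the other. At least one CHR match was found in 33 of the 43 genes (76.7%), against 21.7% of all genes with a window and 16.6% of the genes tested here. Within 50 bases of the start on either side, 30 of the 43 genes held one (69.8%), against 6.12% of all genes. A CCAAT box was found in 31 (72.1%), against 41.1% of all genes. A match describes the letters in the window and not a bound site.

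The 120 bases before the start are shown for 6 genes whose differences span the range of the 52, with every match in capitals: the most different gene (Mki67), a kinesin gene with a CHR close to its start (Kif11), both abundant anaphase genes (Cdc20 and Ube2c), and the kinase and cyclin of mitotic entry (Cdk1 and Ccnb1). Each is written 5′ to 3′ on the strand of its gene. ATTGG and TTCAAA are the CCAAT box and the CHR read on the other strand.
Mki67 (chr7:135716380-135716499, - strand): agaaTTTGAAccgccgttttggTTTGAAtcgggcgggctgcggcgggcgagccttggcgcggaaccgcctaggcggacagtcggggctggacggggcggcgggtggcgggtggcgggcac
Kif11 (chr19:37376262-37376381, + strand): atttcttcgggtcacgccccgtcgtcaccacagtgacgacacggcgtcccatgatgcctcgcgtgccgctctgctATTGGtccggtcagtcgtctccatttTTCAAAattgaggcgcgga
Cdc20 (chr4:118437344-118437463, - strand): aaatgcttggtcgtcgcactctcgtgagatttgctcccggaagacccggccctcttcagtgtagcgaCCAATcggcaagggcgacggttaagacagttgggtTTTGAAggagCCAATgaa
Ube2c (chr2:164769809-164769928, + strand): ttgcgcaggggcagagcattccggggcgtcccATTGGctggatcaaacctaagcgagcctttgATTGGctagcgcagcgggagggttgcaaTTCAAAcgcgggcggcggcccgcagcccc
Cdk1 (chr10:69352913-69353032, - strand): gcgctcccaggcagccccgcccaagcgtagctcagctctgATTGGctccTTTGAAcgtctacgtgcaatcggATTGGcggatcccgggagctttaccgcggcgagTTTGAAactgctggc
Ccnb1 (chr13:100786487-100786606, - strand): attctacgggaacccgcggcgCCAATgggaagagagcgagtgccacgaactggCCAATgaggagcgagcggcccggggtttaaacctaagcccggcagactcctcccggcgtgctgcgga

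With the start as 0, Mki67 held 2 CHR matches that began at -116 and -98. Its CCAAT boxes, at -188, -166 and -141, lie upstream of the stretch shown. In Kif11, Cdc20, Ube2c and Cdk1 the nearest CHR began at -19, -18, -29 and -15, with a CCAAT box further upstream. Cdc20 held another CCAAT box at -8, and in Ccnb1 only CCAAT boxes matched. The 33 members with a CHR match had a median difference of -0.45 and the 10 without had -0.33. Within the pairs the medians lay closer together, at -0.32 with and -0.27 without in pair 1, and -0.49 and -0.48 in pair 2. The 2 sets were not tested against each other.

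**Figure D4:**
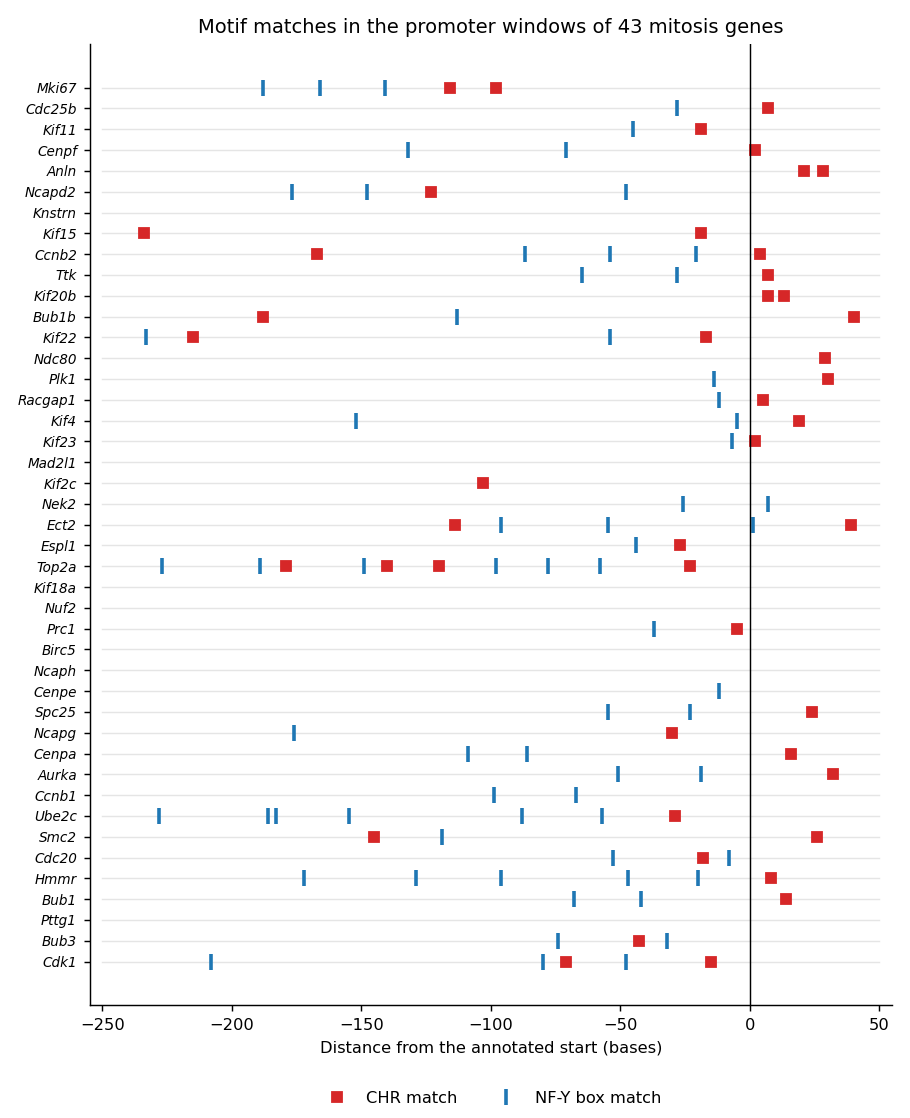
Positions of CHR matches (red squares) and CCAAT boxes, drawn as NF-Y boxes (blue bars), relative to the first annotated start of 43 mitosis genes, in bases. Genes run from the most negative mean difference at the top to the least negative at the bottom. Most red squares lie within 50 bases of the start along the whole range.

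Most genes of mitosis outside the 52 were lower too. Of 67 other mitosis genes, 57 were lower and 2 higher in both pairs, against 42.2% and 21.5% of all genes tested. At an unadjusted limma p under 0.05, 30 were lower and 1 higher, against 9.45% and 5.26% of all genes tested. Their median was -0.34 (-0.29 and -0.36 in the pairs), and 0 passed the corrected test. Depdc1b stood at 2.09 and 4.59 FPKM in coculture and 6.05 and 10.8 FPKM in mock, a difference of -1.13 ± 0.16, which is larger in size than in any of the 52 (-0.70 without coculture 1). Psrc1, whose product binds spindle microtubules, stood at 8.72 and 11.9 FPKM in coculture and 16.8 and 21.7 FPKM in mock, a difference of -0.85 ± 0.13. Iqgap3, a scaffold gene, differed by -0.75 ± 0.13. In their promoter windows, 36 of the 57 matched genes held a CHR (63.2%), against 21.7% of all genes.

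The subunits of the anaphase-promoting complex, which marks proteins for destruction at anaphase, had a median of -0.12 (-0.057 without coculture 2 and -0.026 after the length and GC correction), and their gap to the mitosis genes was not tested. Of 14, 7 were lower in both pairs, a share near the 42.2% of all genes. At an unadjusted limma p under 0.05, 0 were lower and 0 higher, beside 9.45% and 5.26% of all genes tested. Their largest differences were in Cdc23 (-0.29 ± 0.13), Anapc5 (-0.23 ± 0.11) and Anapc2 (-0.20 ± 0.13).

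DNA replication and S phase genes were lower in both pairs in 40 of 50 (42.2% of all genes tested). At an unadjusted limma p under 0.05, 13 of 50 were lower (9.45%). The S phase genes had a median of -0.27 (-0.14 without mock 1). They were more negative in pair 1 (-0.30) than in pair 2 (-0.19), the reverse of the mitosis genes, and this contrast was not tested. Gins3, a subunit gene of the replicative helicase, differed by -1.12 (pair 1) and -0.38 (pair 2), with -0.75 as the mean, or -0.32 without coculture 1 and -1.18 without coculture 2. A CHR was found in 9 of their 41 matched promoters (21.95%), beside 21.7% of all genes with a window and 16.6% of the genes tested here. Within 50 bases of the start on either side, 4 of the 41 held one (9.76%). That share was 6.12% over all genes and 4.51% over the genes tested. A CCAAT box was found in 26 (63.4%), against 41.1% of all genes.

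Among cell cycle transcription factors and their partners, 16 of 21 tested were lower and 1 higher in both pairs, against 42.2% and 21.5% of all genes tested. Their median was -0.26 (-0.14 without mock 1, -0.17 without coculture 2 and -0.38 without mock 2). E2f2, one of the activating E2F genes, stood at 6.71 and 10.8 FPKM in coculture and 18.3 and 19.1 FPKM in mock, a difference of -1.04 ± 0.19. E2f8, a repressor of the E2F family, stood at 18.0 and 20.1 FPKM in coculture and 31.3 and 34.1 FPKM in mock, a difference of -0.75 ± 0.12, and Tfdp2, a partner gene of E2F factors, differed by -0.64 ± 0.17. In each of these 3, the coculture libraries lay below both mock libraries. Over the list, they lay below in 10 of 21 and above in 1, against 21.5% and 10.3% of all genes tested.

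Of the G1 and CDK control genes, 9 of 15 tested were lower and 3 higher in both pairs, where 42.2% of all genes were lower and 21.5% higher. Btg1, an antiproliferative gene, stood at 82.7 and 111 FPKM in coculture and 32.6 and 51.8 FPKM in mock. Both coculture libraries were above both mock libraries, a difference of 1.20 ± 0.12 (limma adjusted p = 0.0720). After median centring it was 1.27 and passed the corrected test. Cdkn1a, which encodes the CDK inhibitor p21, stood at 306 and 204 FPKM in coculture and 157 and 146 FPKM in mock, a difference of 0.72 ± 0.16 (limma adjusted p = 0.209), or 0.43 without coculture 1. Cdkn2c, the gene of the INK4 inhibitor p18, was lower, at 15.5 and 14.4 FPKM in coculture and 24.8 and 30.2 FPKM in mock, a difference of -0.83 ± 0.15. The 10 tubulin genes, which encode building blocks and organizers of microtubules, and Stmn1, a gene for a microtubule-destabilizing protein, had a median of 0.01 (-0.23 without coculture 2, -0.088 without mock 1, 0.57 without coculture 1 and 0.47 without mock 2), with 4 of 11 lower and 3 higher in both pairs, not far from the shares of all genes. Tubb6 stood at 255 and 186 FPKM in coculture and 112 and 97.7 FPKM in mock, above mock in both pairs (1.05 ± 0.13), while Stmn1 differed by -0.06 and -0.81. Tuba1c stood at 116 and 203 FPKM in coculture and 106 and 163 FPKM in mock, with both libraries of pair 2 above both of pair 1.

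**Figure D5:**
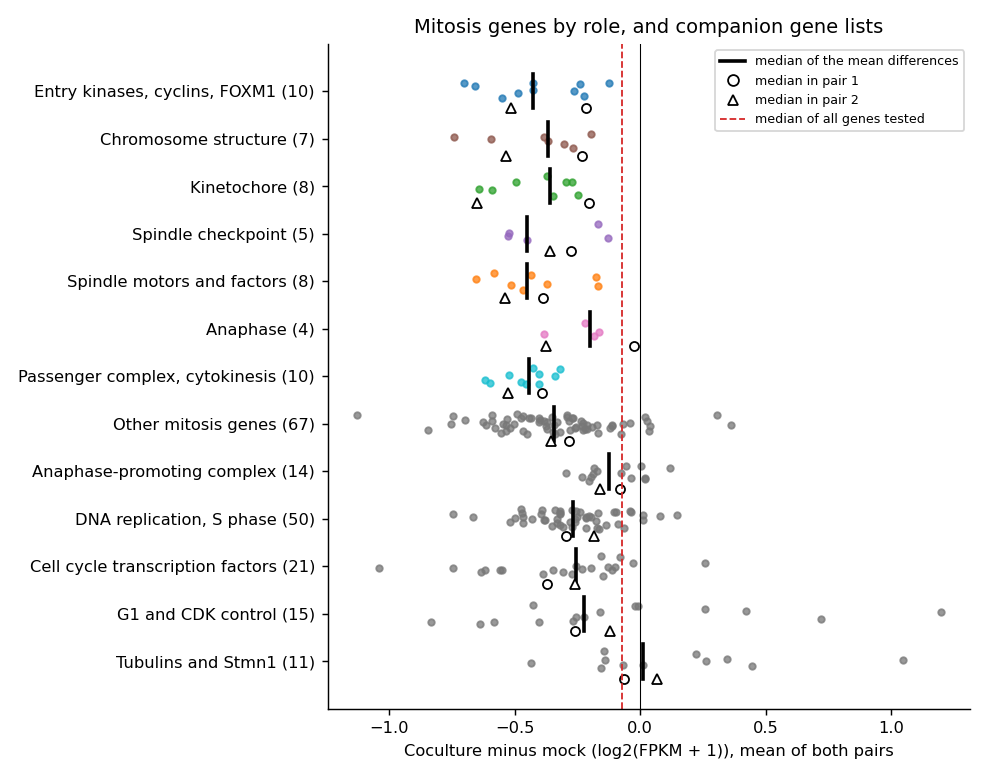
Difference of each gene, coculture minus mock in log2(FPKM + 1) averaged over both pairs, for the mitosis genes by role (coloured) and for companion lists (grey), with the number of genes in brackets. Black bars are medians of these differences, open circles and triangles are medians within pair 1 and pair 2, and the dashed line is the median of all genes tested at -0.07. All 7 role medians lie left of the dashed line, and the median of tubulins and Stmn1 lies right of it.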

How the data were processed

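The 4 RAW264.7 libraries, 2 cocultured with CT26 cells and 2 mock, were prepared from messenger RNA with a Vazyme VAHTS kit, per the labels' protocols. The authors deposited FPKM in 2 tables, one per replicate number. The submitters' processing notes name Trim Galore, Subread and featureCounts, and give a human build, hg38, although both tables hold mouse symbols. Versions, annotation, gene lengths and strand setting are not stated in those notes. In the first table, rows with no name (23, at most 5.2e-06% of a library's FPKM) or a repeated name (287, at most 1.07%) were left out.

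Names found once in both tables gave 22554 genes, of which 10202 with at least 1 FPKM in at least 2 libraries were tested. Coculture was compared with mock on log2(FPKM + 1) with limma 3.58.1 under R 4.3.3 (functions lmFit and eBayes, trended prior, two-sided), with Benjamini-Hochberg adjustment over all genes tested and a threshold of 0.05. Since FPKM cannot enter a count model, none was fitted; differences on this scale understate the change of low genes. Each pair stands in its own table, possibly with its own normalization, so the pair was a block. Same-numbered libraries also deviated together (correlation across genes 0.76). The block left 1 residual degree of freedom beside a prior of 3.43. Library depth was estimated from the steps between low FPKM values with GENCODE M21 gene lengths. Counting errors cover counting only.

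The members, companion lists and tests were chosen with earlier results of these data known. Named in full were up to 3 genes per role whose pairs had the same sign, taken by size of difference, genes with opposite signs, 8 fixed genes (Mki67, Top2a, Cdk1, Ccnb1, Plk1, Aurkb, Birc5 and Foxm1), and up to 3 genes per companion list, all with a mean of at least 2 FPKM. Other members are given by their values alone. Alternatives covered pseudocounts, filters, scaling, the block, the trend, leaving out libraries, and a correction for gene length and GC content. The calculation was tested on simulated data.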

Additional observations from a re-analysis of the deposited data

How the results depend on the processing

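None of the 52 mitosis genes passed limma's corrected test under any alternative. Their median difference stayed between -0.45 and -0.33 with other pseudocounts, filters, scalings and fits, and between -0.49 and -0.29 when a library or a pair was left out. The number lower at an unadjusted p under 0.05 was 27, against 15 without the replicate block (2.37% of all genes), 21 to 34 under the other settings with all libraries (4.36% to 12.3%), and 0 to 6 with one library left out (0.343% to 2.95%), in fits without the block that cross the tables. The number lower in both pairs ran from 41 to 50, where the share of all genes ran from 22.9% with no filter to 49.0% after rescaling to a common total, the setting with 50. Over all genes, 13 passed the test higher, against 46 after correction for gene length and GC content (chosen after seeing the data), 25 at 5 FPKM, 85 after median centring, 0 with no filter, 1 without the replicate block, 1 without the trend, 22 with a pseudocount of 0.1, 43 after quantile normalization, and 0 with any one library left out. Those lower numbered 0, against 2, 1, 18 and 3 with the length and GC correction, at 5 FPKM, after centring and after quantile normalization.

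The length and GC correction put the median of the checkpoint genes at -0.39, of the anaphase-promoting complex at -0.026, of the transcription factors at -0.15, of G1 and CDK control at -0.070 and of S phase at -0.18. Median centring put those of the checkpoint genes at -0.39, the anaphase-promoting complex at -0.059 and the other mitosis genes at -0.28. With a library or pair left out, medians ran from -0.40 to -0.28 for the checkpoint genes, -0.17 to -0.057 for the anaphase-promoting complex, -0.38 to -0.14 for the transcription factors, -0.28 to 0.18 for G1 and CDK control, -0.40 to -0.29 for the other mitosis genes, -0.39 to -0.14 for S phase, and -0.23 to 0.57 for tubulins and Stmn1. G1 and CDK control turned positive without coculture 1 (0.18) and without mock 2 (0.013). The causes were not tested.

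Of 448 values for the 28 named members, 439 kept their direction and side of the threshold and 9 turned. With a library or pair left out, differences ran from -0.37 to 0.11 for Bub3, -0.51 to 0.15 for Cdc20, -0.59 to 0.34 for Cdk1 and -0.49 to 0.16 for Pttg1. The positive values arose without coculture 2 in Bub3, Cdc20 and Cdk1, without mock 1 in Cdc20 (0.0038) and Cdk1 (0.17), and without mock 2 in Pttg1 (0.036), and from pair 1 alone in Bub3 (0.052), Cdk1 (0.048) and Pttg1 (0.16). Among 287 values for 18 other named genes, Tuba1c ran from -0.18 to 0.62, negative without coculture 2 and mock 1 (-0.088), and Btg1 passed the test after median centring (1.27). With 2 pairs and 1 residual degree of freedom, the precision of a single gene was limited. The estimated counting error was at most 4.40% for the members, and its part in that precision was not tested.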
